A study of Mus musculus with 6 samples.

Results

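The cytosolic ribosomal protein genes encode the protein parts of the ribosome that works in the cytoplasm. They were taken by symbol: Rpl or Rps followed by a number (with an optional a, x, l or y and further digits), Rplp0, Rplp1, Rplp2 and Rpsa, without the Rps6k kinases and without 5 pseudogene symbols. The rule took 83 of the 32285 genes counted, 51 of the large and 32 of the small subunit. They are called member genes here. Single-cell RNA sequencing measured them in lung cells from 3 libraries of normal mouse lung (Control 1, 2 and 3) and 3 libraries of mouse lung infiltrated by Trp53 R172H/Δ acute myeloid leukaemia (AML 1, 2 and 3). In all 6 libraries the lung was digested with Liberase and DNaseI and sorted for niche cells, the cells of the tissue that are not blood cells. Before loading, the AML suspensions were mixed from 80% niche cells and 20% sorted GFP-positive leukaemia cells. The labels used here give no strain, age or treatment of the mice and do not say how the leukaemia was established or whether each library came from its own animal. The p-values therefore describe only how far these libraries spread, and that spread can be technical.

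Each ribosome holds a copy of nearly every one of these proteins, and cells make them in step, so their mRNAs are among the most abundant of a cell. Most of the mRNAs begin with a run of pyrimidines (a 5′ terminal oligopyrimidine, or TOP, tract), through which the kinase complex mTORC1 controls their translation. Free Rpl5 and Rpl11 bind Mdm2, the ubiquitin ligase of p53, when ribosome assembly is disturbed, and Rps27l is a target gene of p53. Some members have a paralogue that differs in expression between tissues, such as Rpl39l, Rpl10l, Rpl3l, Rpl22l1 and Rps27l.

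After filtering, 23745 cells in 22 clusters were used, 1718 to 3673 in Controls and 4496 to 5790 in AML libraries. Cells were assigned to classes by markers, with the member genes left out of the clustering. Each class name stands for cells that resemble that type in its markers. Of 28391 distinct barcode sequences, 125 occurred in at least 2 libraries, and 84 of 23661 did among the cells used. Control 1 stood apart in depth, with a median of 8323.5 unique molecular identifiers (UMIs, counted mRNA molecules) per cell, while the other 5 libraries had medians from 3723 to 5504. Class shares, median changes and counts of members above 0 are therefore also given without Control 1. AML 1 differed from the other AML libraries in general capillary cells: in a finer clustering, 2176 of its cells fell in a cluster led by Hey1 and Glp1r that also took most Control cells, and 291 in a cluster led by Spry4 and Plat. For AML 2 and AML 3 these numbers were 89 and 2075, and 416 and 2439. Different clusters thus held most capillary cells of Controls and of AML 2 and AML 3. The member shares of UMIs in AML 1, 2 and 3 were 7.79%, 8.97% and 11.04% in the first and 7.73%, 8.03% and 10.5% in the second.

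Over all cells, member genes gave a larger part of the UMIs in AML libraries than in Controls. Their share was 6.86%, 10.2% and 11.1% in Control 1, 2 and 3 (9.40% ± 2.24, SD, n = 3). It was 18.1%, 22.2% and 21.4% in AML 1, 2 and 3 (20.6% ± 2.17, SD, n = 3), 2.19 times the Control mean. The groups did not overlap. With the leukaemia cells left out, the AML libraries had 9.58%, 10.1% and 11.9% (10.5% ± 1.22, SD, n = 3), against an unchanged 9.40% ± 2.25 in the Controls, and the groups overlapped. Leukaemia cells made up 13.5%, 24.5% and 18.9% of the cells of AML 1, 2 and 3. They held 49.3%, 61.6% and 54.0% of all UMIs of these libraries, and 73.1%, 82.5% and 74.4% of their member UMIs. With all blood cell classes left out, the shares were 6.58%, 9.51% and 9.79% in Controls and 8.74%, 9.43% and 11.5% in AML libraries. In Control 3 this also left out 464 barcodes led by haemoglobin genes, which its share over all cells includes. Barcodes with too few genes to be used, which hold free RNA and damaged cells, had member shares of 4.27% to 5.99% in Controls and 3.68% to 6.12% in AML libraries. The bar chart of library shares sets both versions side by side.

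**Figure D1:**
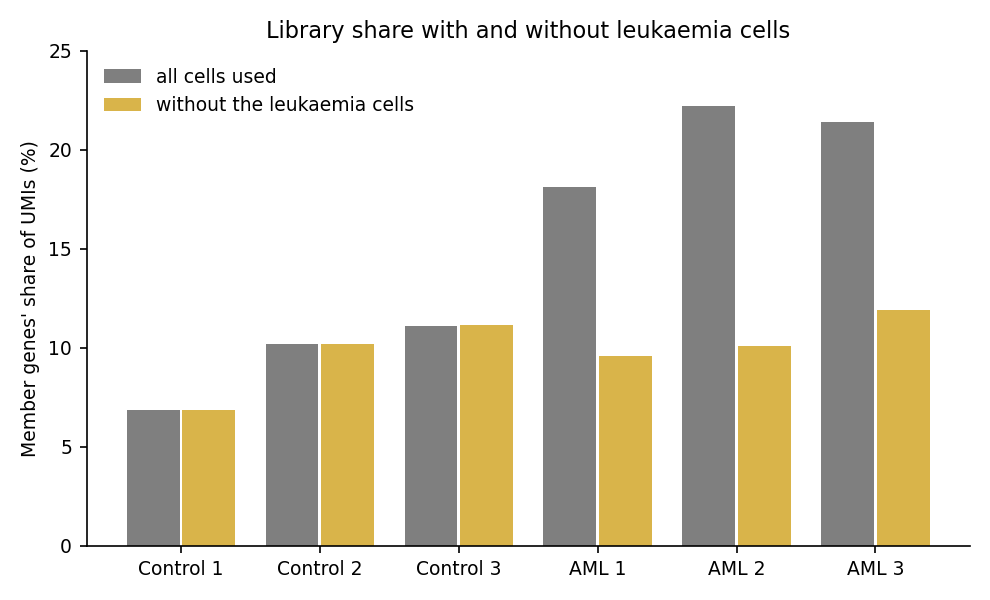
Member genes' share of all UMIs (y axis, %) in each of the 6 libraries, over all cells used (grey) and without the leukaemia cells (yellow); each bar is 1 library. With leukaemia cells the AML libraries reach 18.1% to 22.2%, and without them 9.58% to 11.9%, beside 6.86% to 11.1% in the Controls.

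The share differed more between cell classes than between groups. Leukaemia cells gave 26.9%, 29.7% and 29.5% of their UMIs to member genes in AML 1, 2 and 3 (28.7% ± 1.58, SD, n = 3). Lymphocytes were the other classes of this height. T or NK cells had 23.3%, 32.0% and 30.5% in Controls and 33.4%, 40.8% and 37.7% in AML libraries. B cells had 17.96%, 31.3% and 27.8% in Controls and 28.0%, 34.8% and 34.5% in AML libraries. Control 1 held only 18 T or NK cells and 8 B cells, so its values for these classes are poorly supported. Control 2 and Control 3, from normal lung, thus held T or NK cells with shares at or above those of the leukaemia cells.

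Among the niche classes, ciliated airway cells had the lowest share, 4.01%, 5.55% and 5.36% in Controls and 5.52%, 5.88% and 5.78% in AML libraries. Aerocytes, the large capillary cells of gas exchange, followed with 4.43%, 6.15% and 6.47% in Controls and 5.72%, 6.47% and 6.94% in AML libraries. General capillary cells, the class with the most cells, had 6.08%, 9.10% and 9.46% in Controls (8.21% ± 1.86, SD, n = 3) and 7.79%, 8.10% and 10.6% in AML libraries (8.84% ± 1.56, SD, n = 3). The Control means of ciliated cells and aerocytes were 4.98% ± 0.838 and 5.68% ± 1.10 (SD, n = 3). Within each of the 6 libraries ciliated cells were below aerocytes, and aerocytes below general capillary cells. Alveolar type 2 cells, which make surfactant, had 7.72%, 10.8% and 10.8% in Controls (9.79% ± 1.79, SD, n = 3) and 10.6%, 12.3% and 13.2% in AML libraries (12.04% ± 1.32, SD, n = 3). Alveolar duct myofibroblasts stood highest of the niche classes, with 10.1%, 15.8% and 14.2% in Controls (13.4% ± 2.94, SD, n = 3) and 15.5%, 18.6% and 19.8% in AML libraries (17.96% ± 2.23, SD, n = 3).

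The AML mean was higher than the Control mean in 9 of the 9 niche classes with at least 20 cells in every library, by 0.0959 percentage points in alveolar fibroblasts to 4.596 in alveolar duct myofibroblasts. Control 1 was the lowest library in 9 of 9. Without it, the AML mean was higher in 6 of 9 classes, and the differences ran from -1.71 in alveolar fibroblasts to 2.97 in alveolar duct myofibroblasts. In general capillary cells the difference went from 0.627 with Control 1 to -0.441 without it, and in venous endothelial cells from 0.415 to -0.897. It stayed above 0 in alveolar type 2 cells (2.25 and 1.22), arterial endothelial cells (3.70 and 1.73) and smooth muscle cells (2.53 and 1.05). The groups overlapped in 8 of the 9 classes. The exception was smooth muscle, with 9.45%, 13.9% and 13.9% in Controls and 14.4%, 15.2% and 15.2% in AML libraries. A summed share over members chosen with earlier results known was given no test.

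Depth per cell also differed between libraries, but it had no fixed relation to the shares. General capillary cells had medians of 8403, 4886 and 4435 UMIs in Controls and 3542, 3992 and 2793 in AML libraries, and alveolar duct myofibroblasts 9240, 5046 and 4447 against 3014, 2192 and 2529. In alveolar type 2 cells Control 1 was instead the shallow library, with a median of 2628 UMIs beside 11915 to 21220 in the other 5 libraries. The finer clustering put 113 of its 321 alveolar type 2 cells into the cluster led by Sftpd and Sftpb that held nearly all such cells of the other libraries, at a median of 26726 UMIs. Another 115 fell into a cluster led by Hc and Ank3, at a median of 1418 UMIs, 38 into one led by the heat shock genes Hspa1b and Hspa1a and 54 into an unnamed one led by Tgfb2 and Hbb-bs. The other 5 libraries had 8 cells in all in these 3 clusters. In the cluster led by Sftpd the member share was 7.76%, 10.8% and 10.8% in Controls and 10.7%, 12.3% and 13.2% in AML libraries, so Control 1 was the lowest there too. In absolute terms the median general capillary cell held 446.5, 409 and 377 member UMIs in Controls and 262, 305 and 274 in AML libraries, so the group with the higher mean share had fewer member UMIs per cell. Among capillary cells with 3000 to 9000 UMIs, the share was 5.14%, 9.07% and 9.42% in Controls and 7.93%, 8.09% and 10.9% in AML libraries, and Control 1 was again the lowest. In this window the AML mean was above the Control mean by 1.84 percentage points in alveolar fibroblasts and 1.77 in venous cells. Over all their cells these differences were 0.0959 and 0.415. Control 1 had only 11 and 13 cells of these classes in the window. Alveolar duct myofibroblasts were the only class with a smaller difference in the window, 3.31 beside 4.596, from 8 cells in Control 1 and 10 in AML 2. In arterial cells it was 3.70 in both. The other classes had larger differences in the window, such as 1.11 beside 0.627 in general capillary cells and 2.93 beside 2.53 in smooth muscle. The part of depth in these differences was not tested.

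**Figure D2:**
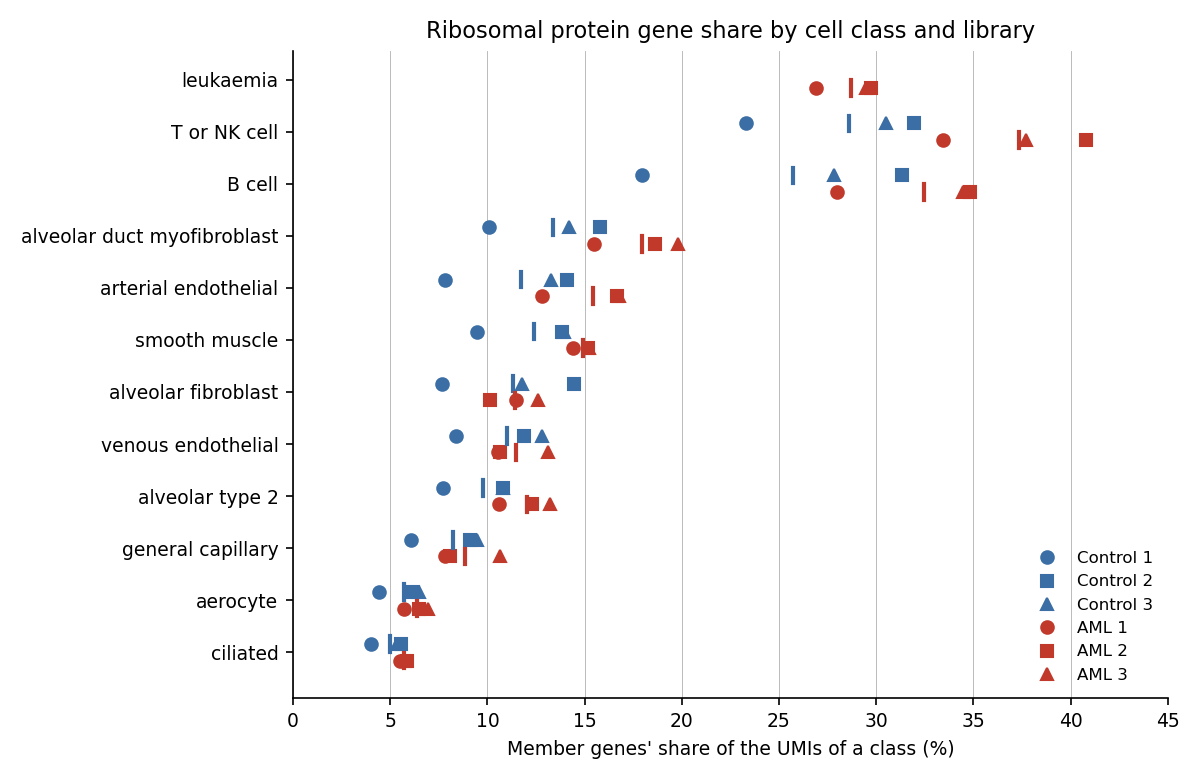
Member genes' share of the UMIs of a class (x axis, %) for 12 cell classes (y axis); each symbol is 1 library, blue for Control and red for AML, with circles, squares and triangles for libraries 1, 2 and 3, and short bars for group means. Lymphocytes and leukaemia cells lie to the right of the niche classes, and Control 1 is the lowest symbol of each niche class.

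Member by member, AML and Control libraries were compared in each niche class with edgeR's quasi-likelihood test on UMIs summed per library. Of the 83 members, 80 had enough counts to be tested in every class and the other 3 in none. Members tend to move together, so counts of them are not counts of independent genes. In general capillary cells 0 of the 80 passed an adjusted p of 0.05 in edgeR, where 1.18% of all 11697 tested genes rose and 1.89% fell. DESeq2 also called 0, and 0 of the 80 had an unadjusted p under 0.05 in edgeR, against 23.3% of all genes. The log2 changes had a median of 0.15 (all genes 0.00), and 70 of 80 were above 0, against 50.1% of all genes. Without Control 1 the median was -0.05, and 24 of 80 were above 0 (51.4% of all genes). The number of calls over all genes of this class varied with the library left out. With all 6 libraries 359 were made, with AML 1 left out 1260, and with Control 1, 2 or 3 or AML 2 or 3 left out 0, 125, 6, 75 and 6. In the fit without Control 1, 2115 of 11896 genes had an unadjusted p under 0.05 in edgeR. DESeq2 was not run without Control 1. In 2 members, Rpl8 and Rpl7l1, every AML library was above every Control library in CPM (UMIs relative to the library total), against 15.2% of all genes.

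Rpl8, a core protein of the large subunit, had the highest change in general capillary cells. Its level was 713, 1165 and 1141 CPM in Controls and 1237, 1483 and 1581 CPM in AML libraries, so the groups did not overlap. The log2 change of 0.51 (SE 0.24) had an adjusted p of 0.230 in edgeR, and without Control 1 it was 0.31 (edgeR adjusted p = 0.366). Rpl10a followed at 0.37 and Rps2 at 0.35. At the other end lay Rpl23a at -0.21, Rps15 at -0.14 and Rpl5 at -0.12. Rpl5, which carries the 5S rRNA into the ribosome and binds Mdm2, had 604, 741 and 749 CPM in Controls and 615, 586 and 732 CPM in AML libraries (edgeR adjusted p = 0.748). Its partner Rpl11 had 639, 1150 and 1116 CPM in Controls and 1053, 1115 and 1218 CPM in AML libraries, a log2 change of 0.22 (edgeR adjusted p = 0.616). Both genes overlapped between the groups.

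The other members with a known special role overlapped between the groups as well. Rplp0, the base of the stalk that recruits elongation factors, had 581, 915 and 918 CPM in Controls and 835, 1011 and 1020 CPM in AML libraries (log2 change 0.25, edgeR adjusted p = 0.536). The stalk proteins Rplp1 and Rplp2 had log2 changes of 0.18 and 0.10 and did not pass the test. Rps6, the substrate of the S6 kinases, had 748, 1157 and 1072 CPM against 1047, 1022 and 1161 CPM (log2 change 0.12, edgeR adjusted p = 0.773). Rpsa, which also serves as a laminin receptor, had a log2 change of 0.21 (edgeR adjusted p = 0.592). Rps27l had 142, 234 and 250 CPM in Controls and 240, 261 and 276 CPM in AML libraries (log2 change 0.31, edgeR adjusted p = 0.422). For each of these genes Control 1 was the lowest Control library.

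The members' own levels in general capillary cells covered a wide range. Because each 3′ UMI stands for 1 mRNA molecule, levels were compared between genes as CPM without scaling for length, though reads shared with close copies elsewhere in the genome make such comparisons uncertain. Among the most abundant were Rps24 (2020 ± 654 CPM in Controls and 2149 ± 421 CPM in AML libraries, SD, n = 3) and Rpl13 (1868 ± 515 and 2118 ± 294 CPM). The least abundant tested members were Rpl7l1 (61.6 ± 7.37 and 72.4 ± 4.28 CPM), Rps27l (209 ± 58.4 and 259 ± 18.1 CPM) and Rpl22l1 (215 ± 79.0 and 235 ± 59.0 CPM). All 3 of the least abundant are paralogues of other members.

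In the 8 other niche classes, edgeR likewise called 0 of 80 members at an adjusted p of 0.05. DESeq2 called 3 in alveolar duct myofibroblasts and 0 in the others. In alveolar type 2 cells, 0.545% of all genes rose and 0.674% fell. Here 80 of 80 members had a log2 change above 0 (49.5% of all genes), with a median of 0.41, and 0.19 without Control 1. Of these, 6 had an unadjusted p under 0.05 in edgeR (17.8% of all genes), and in 40 every AML library was above every Control library (12.6% of all genes, and 24.8% lay apart in either direction). The highest was Rps19, a small subunit protein needed for rRNA maturation, with 1712, 3112 and 3123 CPM in Controls and 3542, 4412 and 4819 CPM in AML libraries (log2 change 0.68, SE 0.30, edgeR adjusted p = 0.253). Without Control 1 its change was 0.45 (edgeR adjusted p = 0.155), 70 of 80 members were above 0 (50.6% of all genes) and 13 had an unadjusted p under 0.05 in edgeR (17.3% of all genes). Rps14 followed at 0.65 and Rpl8 at 0.64. The lowest were Rpl31 at 0.01, Rpl7a at 0.07 and Rpl41 at 0.10.

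Alveolar duct myofibroblasts had the highest median change, 0.48 on the log2 scale, and 0.27 without Control 1. Among all genes of this class 0.682% rose and 0.737% fell. Of the 80 members, 78 were above 0 (49.8% of all genes), 26 had an unadjusted p under 0.05 in edgeR (15.1% of all genes), and 27 had AML libraries all above the Controls (10% of all genes). The highest was Rpl12, a protein at the base of the stalk. It had 1239, 1644 and 1607 CPM in Controls and 2298, 3295 and 2824 CPM in AML libraries, without overlap (log2 change 0.91, SE 0.25, edgeR adjusted p = 0.0765). Without Control 1 its change was 0.78 (edgeR adjusted p = 0.0962), 76 of 80 members were above 0 (50.3% of all genes) and 8 had an unadjusted p under 0.05 in edgeR (12.3% of all genes). Rps3a1 (0.74) and Rps25 (0.72) came next, and Rpl41 (-0.01), Rpl7l1 (-0.00) and Rpl31 (0.05) were lowest. This class had 22, 40 and 39 cells in Controls and 71, 84 and 106 in AML libraries.

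Arterial endothelial and smooth muscle cells had similar medians. In arterial cells, where 0.127% of all genes rose and 0.0905% fell, the median was 0.41 (0.16 without Control 1) and 80 of 80 members were above 0, against 49.9% of all genes. Of these, 7 had an unadjusted p under 0.05 in edgeR (11.5% of all genes) and 16 had AML libraries all above the Controls (8.71%). Rps3, a small subunit protein at the mRNA entry channel, was highest, with 1021, 2347 and 1911 CPM in Controls and 2356, 4292 and 3099 CPM in AML libraries (log2 change 0.88, SE 0.33, edgeR adjusted p = 0.280). Without Control 1 its change was 0.61 (edgeR adjusted p = 0.376). Rplp0 (0.67) and Rps4x (0.65) followed, and Rpl10 (0.07), Rpl22l1 (0.08) and Rpl4 (0.10) were lowest. In smooth muscle cells, where 0.274% of all genes rose and 0.529% fell, the median was 0.38 (0.18 without Control 1). There 79 of 80 members were above 0 (50.9% of all genes), 1 had an unadjusted p under 0.05 in edgeR (11.1%) and 33 did not overlap between the groups (8.01% of all genes higher in AML). Rpl10a and Rpl12 (both 0.57) and Rpl13 (0.56) were highest, and Rpl7l1 (-0.12), Rpl23a (0.01) and Rpl4 (0.05) lowest.

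The remaining classes lay closer to 0. Aerocytes had a median of 0.20 (0.02 without Control 1), with 1.14% of all genes risen and 2.22% fallen. In them 76 of 80 members were above 0 (50.3% of all genes), 1 had an unadjusted p under 0.05 in edgeR (15.8%) and 10 had AML libraries all above the Controls (11%). Ciliated cells had a median of 0.21 (0.06 without Control 1), with 0.264% risen and 0.352% fallen. In them 71 members were above 0 (49.3%), 1 had an unadjusted p under 0.05 in edgeR (9.19%) and 16 did not overlap (7.43%).

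Venous endothelial cells and alveolar fibroblasts had the lowest medians. In venous cells the median was 0.11 (-0.09 without Control 1), with 0.105% of all genes risen and 0.163% fallen. There 62 members were above 0 (50.7%), 0 had an unadjusted p under 0.05 in edgeR (11.4%) and 2 did not overlap (8.68%). In alveolar fibroblasts the median was 0.01 (-0.22 without Control 1), with 0.632% of all genes risen and 0.632% fallen. There 42 members were above 0 (49.8%), and 0 had an unadjusted p under 0.05 in edgeR (15.7%) and 0 lay apart (10.6%). Control 1 had the lowest member share in each of the 9 classes, which left little room for a member to lie wholly lower in AML libraries. The count of such members was not repeated without Control 1. In 0 members of any of the 9 classes was every AML library below every Control library. Among all genes this held for 15.8% in general capillary cells, 12.1% in aerocytes and in alveolar type 2 cells, 10.5% in alveolar fibroblasts, 9.7% in venous cells, 9.8% in alveolar duct myofibroblasts, 9.2% in arterial cells, 8.52% in smooth muscle and 7.12% in ciliated cells. At the upper ends of these 4 classes, Rpl8 stood among the highest members in aerocytes (0.51) and venous cells (0.43). Rpl10a did so in venous and in ciliated cells (0.40 in each). Others were Rpl32 and Rpl14 in aerocytes (both 0.36), Rpl37 (0.40) in ciliated cells, Rpl7l1 (0.47) in venous cells, and Rpl18 (0.28), Rpl24 (0.27) and Rpl12 (0.25) in alveolar fibroblasts.

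Rpl23a was the lowest member in 4 classes, general capillary cells, aerocytes (-0.11), alveolar fibroblasts (-0.31) and venous cells (-0.33). Rpl5 (-0.08) and Rps15 (-0.06) were next in aerocytes, Rps2 (-0.25) and Rpl31 (-0.24) in alveolar fibroblasts, and Rps21 (-0.18) and Rpl5 (-0.17) in venous cells. In ciliated cells Rpl31 (-0.20), Rps15 (-0.14) and Rps29 (-0.14) were lowest. None of these passed the test. Over the classes, Rpl23a, Rpl31, Rps15 and Rpl5 took their largest part of member UMIs in Control 1. Their log2 deviations from class means in that library were 0.68, 0.70, 0.51 and 0.36. Rps2, Rps21 and Rps29 did not have their largest part there. How far Control 1 set these low ends was not tested. Without Control 1 the members above 0 numbered 74 of 80 in smooth muscle (51.6% of all genes), 69 in arterial cells (51.5%), 50 in ciliated cells (50.3%), 49 in aerocytes (51.1%), 20 in venous cells (51.3%) and 3 in alveolar fibroblasts (49.7%). Across the 9 classes the plot of changes shows each member and both medians.

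**Figure D3:**
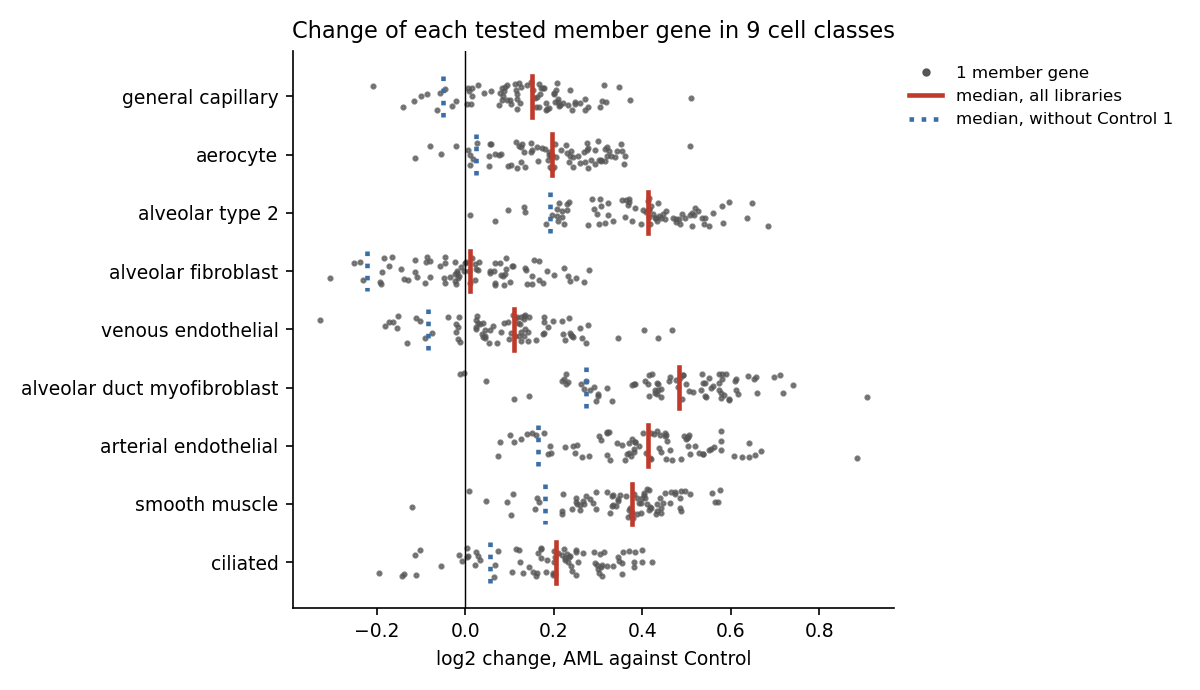
The log2 change, AML against Control, of each of the 80 tested members (x axis) in 9 niche cell classes (y axis); each grey point is 1 gene, the red bar is the median over all libraries and the blue dotted bar the median without Control 1. Leaving out Control 1 moves the median down in each of the 9 classes, from 0.15 to -0.05 in general capillary cells and from 0.41 to 0.19 in alveolar type 2 cells.

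RNA of the added leukaemia cells was looked for in the niche classes of the AML libraries. Car1, a carbonic anhydrase of the leukaemia cells, had 277, 222 and 373 CPM in leukaemia cells of AML 1, 2 and 3. In general capillary cells it was at 0 in the 3 Controls and at 0.641, 1.43 and 3.14 CPM in AML libraries. In alveolar duct myofibroblasts Car1 was at 0 in Controls and at 0, 5.10 and 7.20 CPM in AML libraries. Values of a few CPM in this small class rest on very few UMIs. Trap1a, at 437, 345 and 426 CPM in leukaemia cells, was there at 0 in Controls and at 0, 25.5 and 0 CPM in AML libraries. The 13 leukaemia markers summed to 1453 to 1838 CPM in general capillary cells of the Controls and 1093 to 1372 CPM in those of the AML libraries, with Kit, Gata2 and Cd34 high in capillary cells themselves. In alveolar type 2 cells the sums were 25.1 to 196 CPM in Controls and 19.6 to 23.4 CPM in AML libraries, and in alveolar duct myofibroblasts 79.3 to 334 and 40.8 to 68.4 CPM. Red cell genes summed to 72.8, 526 and 2185 CPM in general capillary cells of the Controls and to 18.3 to 26.7 CPM in those of the AML libraries. The part of RNA from other cells in the members' changes was not tested.

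Whether the AML effect on a member differed between classes was tested as a difference of differences, with the library as a block. For alveolar type 2 minus general capillary cells, edgeR called 0 of 80 members at an adjusted p of 0.05, where 0.0872% of all 12609 genes were called higher and 0.167% lower. The differences were above 0 for 76 of 80 members (46.6% of all genes), with a median of 0.31 on the log2 scale (all genes -0.03) and a range from -0.15 to 0.59. An unadjusted p under 0.05 in edgeR was reached by 56 members, against 13.5% of all genes, but the members are not independent of each other. DESeq2 was not run for this difference. The farthest was Rpl27a, at 0.59 (edgeR adjusted p = 0.0720). Leaving out Control 1 gave a median of 0.25 and 0 calls, and leaving out AML 1 gave 1 call, Rpl27a, at 0.65 (edgeR adjusted p = 0.0320).

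For aerocytes minus general capillary cells, the pair of capillary types, edgeR also called 0 of 80, where 0.57% of all 11579 genes were called higher and 1.08% lower. The median was 0.03, the range -0.32 to 0.35, and 56 members were above 0 (43% of all genes). An unadjusted p under 0.05 was found for 3 members (11.4% of all genes). The ends were Rpl31 at 0.35 (edgeR adjusted p = 0.127) and Rps27l at -0.32 (edgeR adjusted p = 0.199).

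Leukaemia cells were compared with general capillary cells inside the same AML libraries. The leukaemia class was 1 cluster that took at least 95% of its cells from AML libraries, 605, 1135 and 1094 of them in AML 1, 2 and 3, beside 0, 2 and 9 in the Controls. Of 13 leukaemia markers, 10 were higher there than in capillary cells in every AML library, among them the erythroid factor Gata1 (103, 63.4 and 77.6 CPM, against 0.427, 0.549 and 0.897). Kit, Gata2 and Cd34 were lower. The pan-leukocyte gene Ptprc was low at 1.16, 2.18 and 3.03 CPM, and mast cell or basophil markers scored slightly above those of progenitor-like leukaemia (2.03 and 1.87). Leukaemia cells were also much deeper, with median UMIs of 29817, 22906 and 20556 per cell. Their median cell held 7791, 6356 and 5872 member UMIs, against 262, 305 and 274 in a capillary cell.

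Relative to all mRNA, 79 of 80 members were higher in leukaemia cells and 0 lower, at an edgeR adjusted p of 0.05. Among all 13115 tested genes, 39.6% were higher and 38.5% lower. The median log2 difference was 1.65 (3.14-fold), with an interquartile range of 1.40 to 1.95, while the median of all genes was 0.05. In 78 of 80 members every leukaemia value was above every capillary value (40.9% of all genes). More than 2-fold differences were seen in 73 members (28.8% of all genes) and more than 4-fold in 17 (16.3% of all genes). The large subunit had 48 of 48 members higher, with a median of 1.63 and 6 beyond 4-fold. The small subunit had 31 of 32 higher, with a median of 1.70 and 11 beyond 4-fold, and it held both the highest and the lowest member.

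Rps3 was the highest. Its level was 836, 909 and 971 CPM in capillary cells of AML 1, 2 and 3 and 9247, 8522 and 8046 CPM in the leukaemia cells, a 9.51-fold difference (log2 3.25, SE 0.16, edgeR adjusted p = 1.8e-08). Rplp0 went from 815, 1002 and 1006 CPM to 5785, 6455 and 5691 CPM (log2 2.67, SE 0.15, edgeR adjusted p = 5.3e-08). Both genes were separated without overlap, and Rps3, at a mean of 8605 CPM, was the most abundant tested member of leukaemia cells. Rps28, a small protein of the mRNA exit channel, differed by 2.60 with 481, 703 and 1043 CPM in capillary cells and 3336, 4397 and 5352 CPM in leukaemia cells. AML 1 was the lowest and AML 3 the highest library in both classes. Rps26 (2.47), Rps2 (2.40) and Rpl11 (2.38) lay below it. Rpl11 had 1028, 1104 and 1200 CPM in capillary cells and 5571, 6386 and 5384 CPM in leukaemia cells, and its partner Rpl5 differed by 2.10.

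The stalk proteins Rplp1 and Rplp2 differed by 1.95 and 1.85, Rpsa by 2.36 and the paralogue Rpl22l1 by 2.19. At the low end, Rps15, a small subunit protein near the decoding site, was the exception. It had 850, 899 and 1157 CPM in capillary cells and 1020, 1192 and 1045 CPM in leukaemia cells, which overlapped (log2 0.17, SE 0.15, edgeR adjusted p = 0.306). Rps6 had 1023, 1012 and 1144 CPM in capillary cells and 1440, 1644 and 1447 CPM in leukaemia cells, without overlap (log2 0.51, SE 0.14, edgeR adjusted p = 0.00635). Rpl7l1 (0.77), Rps19 (0.83), Rps16 (0.85), Rps27 (0.95) and Rps27l (0.999) were the other members at or below 2-fold. Rps19 had 1044, 1105 and 1568 CPM in capillary cells and 1921, 2309 and 2313 CPM in leukaemia cells, and Rps27l 235, 258 and 272 CPM and 561, 505 and 464 CPM. A finer clustering split the leukaemia cells into a dividing cluster of 920 cells and another of 1925 cells. The dividing cluster was led by histone genes such as Hist1h2ap, with Mki67 among its top genes. Member shares in AML 1, 2 and 3 were 24.2%, 25.9% and 25.9% in the dividing cluster and 29.5%, 31.8% and 31.7% in the other. The dividing cells had the lower share in each library and the higher median UMIs (35120, 30377 and 24155, against 26227, 19555 and 19391).

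**Figure D4:**
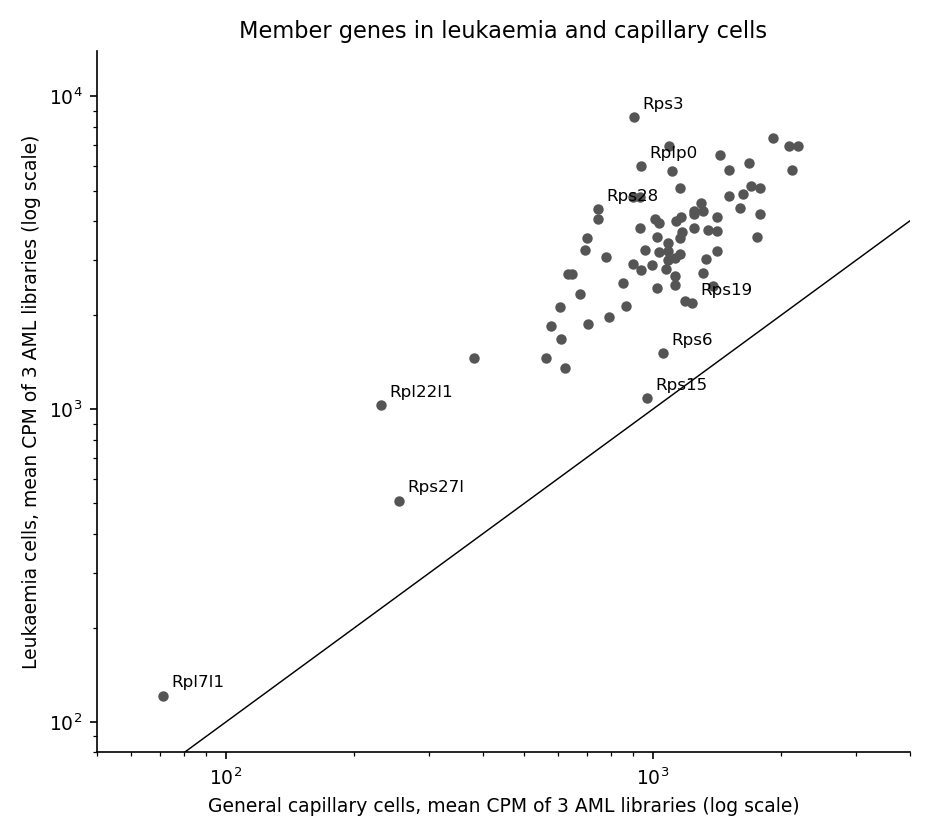
Mean level of each of the 80 tested members in general capillary cells (x axis, CPM, log scale) and in leukaemia cells (y axis, CPM, log scale) of the 3 AML libraries; each point is 1 gene and the line marks equal levels. All points lie above the line, Rps3 farthest at 9.51-fold and Rps15 nearest.

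Because the TOP tract is the shared regulatory sequence of this gene family, the bases around the annotated starts were read for the members at both ends of that comparison and for a pair of paralogues. RefSeq (GRCm38.p6) held a start for 63 of the 83 members. The windows run 5′ to 3′ on the coding strand from 10 bases before to 20 bases from the start, and capitals mark the longest run made only of C and T.

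Rps3 (chr7:99483690-99483719, minus strand): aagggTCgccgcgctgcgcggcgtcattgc
Rplp0 (chr5:115559457-115559486, plus strand): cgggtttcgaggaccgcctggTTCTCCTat
Rps15 (chr10:80292421-80292450, plus strand): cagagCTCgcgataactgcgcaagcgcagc
Rps6 (chr4:86857348-86857377, minus strand): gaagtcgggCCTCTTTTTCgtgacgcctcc
Rps27 (chr3:90213629-90213658, minus strand): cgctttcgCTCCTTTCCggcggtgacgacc
Rps27l (chr9:66946076-66946105, plus strand): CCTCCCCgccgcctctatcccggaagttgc
Rpl22l1 (chr3:28805498-28805527, plus strand): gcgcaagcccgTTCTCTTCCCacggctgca

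The longest runs were 10 bases in Rps6 and Rpl22l1, 9 in Rps27, 7 in Rplp0 and in this start of Rps27l, 3 in Rps15 and 2 in Rps3. A run of at least 8 C or T on the coding strand was found in this window for 24 of the 63 member genes (38.1%) and for 3517 of all 27025 genes of the table (13.0%). By starts, it was 24 of 75 (32%) and 3693 of 32851 (11.2%), and the median longest run was 6 bases against 4. The member with the highest and that with the lowest leukaemia difference, Rps3 and Rps15, both had short runs here, and the long runs of Rps6 and Rpl22l1 belonged to a low and a high difference (0.51 and 2.19). Annotated starts can lie some bases off the start used in lung, so a short run says only that these letters were not in this window.

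Other genes of the translation machinery in the leukaemia cells were taken from lists chosen by function. Their counts stand beside the 39.6% of all tested genes that were higher and the 38.5% that were lower. Of 54 ribosome biogenesis genes, 51 were higher than in general capillary cells and 1 lower, with a median log2 difference of 1.75. Npm1, the nucleolar chaperone nucleophosmin, had 304, 364 and 322 CPM in capillary cells and 3227, 3073 and 2201 CPM in leukaemia cells (log2 3.09), and the lower gene was Sbds (-1.15), which helps the large subunit to mature. Of 23 other mRNAs with a TOP tract, 22 were higher and 1 lower, with a median of 1.47. Rack1, a scaffold on the small subunit, differed by 2.33, and the lower gene was the elongation factor Eef2 (-0.55). The elongation list, which shares Eef2, had 9 of 12 higher and 2 lower (median 1.49), and the initiation list 29 of 38 higher and 6 lower (median 0.84). In the latter, Eif3i differed by 2.27 and Eif4g3 by -3.56.

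Regulators of ribosome production were counted in the same way, beside the same 39.6% higher and 38.5% lower of all genes. Of 22 genes of mTORC1 and its ribosome targets, 11 were higher and 7 lower (median 0.47), among them the translation inhibitors Eif4ebp1 (1.48) and Pdcd4 (2.25), and the mTOR inhibitors Ddit4 (-1.84) and Deptor (-3.15). Of 10 MYC network genes 3 were higher and 4 lower. Myc itself varied between libraries in capillary cells (2.95, 30.6 and 7.70 CPM, against 104, 78.5 and 77.1 CPM in leukaemia cells, edgeR adjusted p = 0.0427). Of 14 genes of p53 and ribosome stress sensors, 3 were higher and 8 lower (median -0.81). The p53 target Cdkn1a had 1640, 3067 and 2271 CPM in capillary cells and 19.9, 40.0 and 36.0 CPM in leukaemia cells (log2 -6.20), whereas Trp53 itself differed by 2.24. Of 19 genes of ribosome quality control 6 were higher and 6 lower (median -0.11). Mitochondrial ribosomal proteins, which build the separate ribosome of mitochondria, had 62 of 78 higher and 2 lower, with a median of 1.02, below the 1.65 of the cytosolic members.

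Few genes of the same lists passed the test between AML and Control niche cells. In general capillary cells, 0 of 54 ribosome biogenesis genes, 0 of 38 initiation, 0 of 12 elongation, 0 of 23 other TOP genes, 0 of 14 p53 and stress sensor genes, 0 of 19 quality control genes and 0 of 78 mitochondrial ribosomal proteins passed the test in edgeR. Their median log2 changes were 0.29, 0.20, 0.12, 0.15, 0.07, -0.06 and 0.31, beside 0.15 for the members and 0.00 for all genes. In the mTORC1 list 0 of 22 rose and 1 fell: Tsc2, an inhibitor of mTORC1, with 36.8, 25.8 and 29.1 CPM in Controls and 17.1, 15.4 and 17.9 CPM in AML libraries (log2 -0.86, edgeR adjusted p = 0.0347). In the MYC network 1 of 9 rose and 0 fell: Mxd1, a partner of Max that opposes Myc, with 14.6, 15.1 and 12.5 CPM against 20.4, 45.3 and 41.9 CPM (log2 1.35, edgeR adjusted p = 0.0337). Both calls held in 1 of 6 fits with a library left out, the one without AML 1. Without Control 1 their adjusted p in edgeR was 0.119 and 0.1597. So 1 of 257 list genes rose and 1 fell in this class, where 1.18% of all genes rose and 1.89% fell. In other classes 7 list genes passed, and their log2 changes were -0.83 for Eif4a2 in aerocytes, 1.01 for Mrpl11 in alveolar type 2 cells, 2.004 for Ddit4 and 1.29 for Nap1l1 in alveolar fibroblasts, 1.74 for Eif2b2 in smooth muscle, and 0.91 for Nhp2 and 1.52 for Rrs1 in ciliated cells. Each of the 7 lost its call with at least 1 library left out. The one in aerocytes was 1 fall among 250 list genes, where 2.22% of all genes fell. The rises were 1 of 252 in alveolar type 2 cells (0.545% of all genes rose), 2 of 235 in alveolar fibroblasts (0.632%), 1 of 202 in smooth muscle (0.274%) and 2 of 202 in ciliated cells (0.264%).

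Within the total of member UMIs, most members kept a steady part across cell classes. Over the 9 niche classes of the Controls, the part of each of 79 members with at least 0.1% of member UMIs had a median coefficient of variation of 10.97%, from 2.58% for Rpl37a to 72.1% for Rps27l. Rps27l ran from 0.176% of member UMIs in alveolar duct myofibroblasts to 0.910% in ciliated cells, 5.18 times as much. Rpl41, the smallest ribosomal protein, ran from 1.30% in alveolar fibroblasts to 5.17% in ciliated cells. In ciliated cells its part was 4.89%, 4.91% and 5.72% in Controls and 4.63%, 4.49% and 4.61% in AML libraries. Rps19 ran from 0.926% in ciliated cells to 2.76% in alveolar type 2 cells, where it had 2.68%, 2.79% and 2.80% in Controls and 3.18%, 3.40% and 3.42% in AML libraries, without overlap. Rpl22l1 (0.247% in venous to 0.671% in ciliated cells) and Rps28 (0.748% in aerocytes to 1.41% in alveolar type 2 cells) completed the 5 most variable members.

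In leukaemia cells the parts of the members at both ends of the comparison with capillary cells were looked at, so they repeat that comparison. Rps3 took 3.50%, 2.75% and 2.75% of their member UMIs in AML 1, 2 and 3, against 1.13%, 1.07% and 0.918% in capillary cells of the same libraries. Rps15 took 0.386%, 0.384% and 0.358%, against 1.14%, 1.06% and 1.09% in capillary cells. In T or NK cells of AML 1, 2 and 3 the part of Rps3 was 1.45%, 1.38% and 1.12%, and in B cells 1.29%, 1.22% and 1.05%. Arterial cells had up to 2.38% (AML 2). Rps15 took 0.763%, 0.722% and 0.891% in T or NK cells and 0.782%, 0.687% and 0.697% in B cells, also below its part in capillary cells of the same libraries.

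Some members set libraries apart rather than groups or classes. These were singled out after their values were seen. In general capillary cells Rpl31 took 1.06% of member UMIs in Control 1 and 0.594% to 0.661% in the other 5 libraries, Rpl23a 1.46% in Control 1 and 0.779% to 0.895% in the others, and Rpl4 0.670% and 0.3799% to 0.479%. Control 1 was the highest library in 9 of 9 classes for each of these 3 genes. Rpl35 had 0.458% in Control 1, which was lowest in 8 of 9 classes, but it did not set Control 1 alone apart. It had 0.874% in Control 3 and 0.798% in AML 3, beside 0.528% to 0.686% in Control 2, AML 1 and AML 2. Over the classes, the parts of Rpl39, Rps28, Rps29, Rps27, Rpl37, Rpl37a, Rpl38 and Rps21 were also highest in Control 3 and AML 3. Of 79 members, 22 deviated most from their class means in Control 1, 20 in AML 1, 14 in AML 3, 11 in AML 2, 7 in Control 3 and 5 in Control 2.

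Paralogues were compared with their partners as a share of the pair's UMIs. Rps27l, the p53 target, against Rps27 gave 16.7%, 15.4% and 13.8% in general capillary cells of the Controls and 22.0%, 21.1% and 13.3% in AML libraries, which overlapped. Its share was highest in ciliated cells (38.9%, 38.6% and 35.1% in the Controls, 41.8%, 40.5% and 35.5% in AML libraries). In aerocytes it was 27.4%, 28.6% and 25.6% against 31.1%, 25.4% and 22.4%. In lymphocytes it was 0.76% to 3.51%, and in leukaemia cells 24.9%, 18.7% and 14.4%. The Rps27l share thus separated lymphocytes from leukaemia cells, although both classes had high total member shares. The partner Rps27 varied by library in its part of member UMIs over the classes. Its log2 deviations from class means were -0.20, -0.01 and 0.25 in Controls and -0.28, -0.02 and 0.27 in AML libraries. Those of Rps27l ran from -0.07 to 0.07. How far the shift of Rps27 shaped the differences between libraries in the pair's share was not tested.

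Rpl22l1 against Rpl22 gave 22.7%, 24.4% and 25.7% in general capillary cells of the Controls and 24.1%, 28.9% and 27.7% in AML libraries. In ciliated cells the paralogue had about as many UMIs as its partner, with 51.9%, 47.6% and 46.4% in Controls and 51.8%, 51.6% and 49.3% in AML libraries. Leukaemia cells had 45.5%, 40.1% and 44.3%. Rpl36al, which the symbol rule leaves out, against Rpl36a gave 32.7%, 33.8% and 32.9% in capillary cells of the Controls, 39.0%, 41.2% and 31.1% in those of the AML libraries and 47.4%, 35.9% and 36.4% in leukaemia cells. Rpl7l1, which acts in ribosome assembly, against Rpl7 gave 7.99%, 6.46% and 7.01%, then 7.41%, 8.599% and 6.96%, and 5.73%, 4.86% and 5.56% in the same order. Over these 4 pairs and 9 niche classes the groups did not overlap only for Rpl7l1 in smooth muscle (5.27%, 3.79% and 3.58% in the Controls, 3.19%, 2.74% and 3.57% in AML libraries). An exact permutation test of such a share, 3 libraries against 3, cannot go below a p of 0.10, and none was run.

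**Figure D5:**
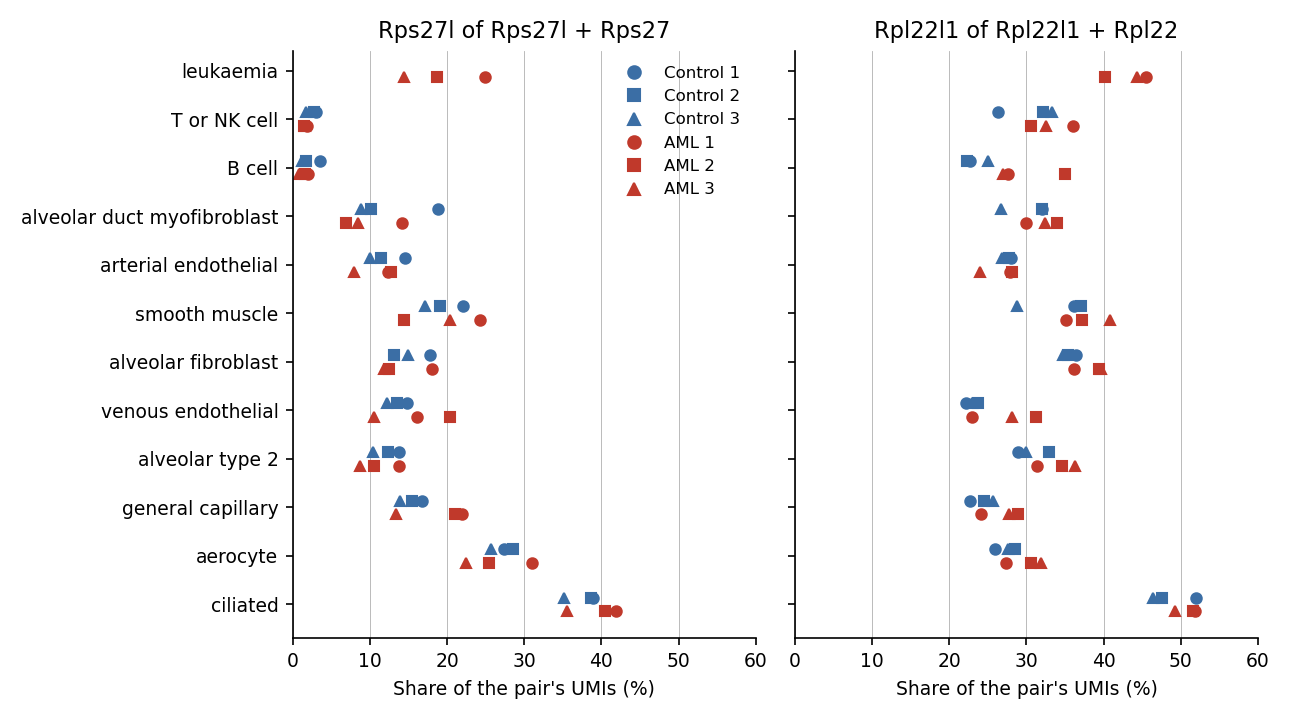
Share of a pair's UMIs that came from the paralogue (x axis, %), Rps27l of Rps27l plus Rps27 at left and Rpl22l1 of Rpl22l1 plus Rpl22 at right, in 12 cell classes (y axis); each symbol is 1 library, blue for Control and red for AML. Ciliated cells lie farthest right in both panels, and lymphocytes lie at 0.76% to 3.51% in the Rps27l panel.

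The 3 members that could not be tested were paralogues known from germ cells or muscle. Rpl10l, a testis paralogue of Rpl10, had 2, 1 and 3 UMIs in Controls and 1, 2 and 2 in AML libraries, 11 in all. Rpl3l, the muscle paralogue of Rpl3, had 29 in all, 1, 3 and 5 in Controls and 9, 5 and 6 in AML libraries. Rpl39l, known from testis, had 71 UMIs, 0, 5 and 10 in Controls and 5, 43 and 8 in AML libraries, so AML 2 alone held 43 of them. At these counts no difference between groups was detectable, and for Rpl39l in Control 1 a count of 0 allows up to 3 UMIs.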

How the data were processed

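The deposited files hold unnormalized UMI counts by gene and barcode, which the authors made from 10x Chromium 3′ v3.1 libraries with Cell Ranger on mm10. The matrix headers name version 6.0.1 and the submitters' processing notes version 7.0.0, and the annotation release is not given in the sources used here. Of 28516 barcodes, 3415 with fewer than 500 genes and 461 with over 15% mitochondrial UMIs were left out. Cells were scored for doublets by the Scrublet method, and the highest-scoring cells of each library, 0.8% per 1000 cells, were removed as doublets (895 cells, 3.63%). The remaining cells were scaled, logged and clustered without the member genes (scanpy 1.11.5, Python 3.11.15, 2000 variable genes, 30 principal components, 15 neighbours, Leiden resolution 0.15, mixed clusters split again). Clusters took the class whose markers led them. The leukaemia cluster was the one with at least 95% of its cells from AML libraries and progenitor-like leukaemia among its 2 best marker scores.

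Because cells are not replicates, the UMIs of each class were added up by library and tested with edgeR 4.0.16 in R 4.3.3 (quasi-likelihood test, robust fit, TMM scaling, filterByExpr), with Benjamini-Hochberg adjustment over all genes of the class at 0.05. Leukaemia cells were compared with capillary cells, and classes with each other, with the library as a block. CPM values follow TMM scaling. On simulated counts for general capillary, alveolar type 2 and arterial cells, 59.4%, 65.7% and 50.5% of 2-fold changes were called. In the same simulations 100% of 4-fold changes were called, and 5.39%, 5.68% and 3.80% of the calls were false. The simulated fits held 11748, 10335 and 5534 genes. These rates describe the simulated counts only, and whether they hold for the real libraries was not tested. In real fits with a library left out, calls over all genes ran from 0 to 1260. The libraries of general capillary cells differed from each other by 8.86 to 47.2 times counting noise (chi-square per degree of freedom), so none was a copy of another. Total UMIs were 19060359, 26789176 and 22687245 in Controls and 39919902, 45953347 and 46018541 in AML libraries.

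Named members were those past the threshold or, where there were fewer than 3, the 3 farthest in each direction. To these were added fixed paralogues, stalk genes, Rpl5, Rpl11, Rps6 and Rpsa, the 3 most and 3 least abundant in capillary cells, list genes past the threshold there, and the 5 most variable members between classes. The members and lists were chosen with earlier results of these data known. The resolution was chosen after the naming of clusters at 0.15, 0.25, 0.4, 0.6 and 1 had been looked at, when the library shares of member UMIs had been seen, and the leukaemia rule was tightened after it had taken an AML-heavy B cell cluster. Alternatives were DESeq2 1.42.0, its size factors, no filter on low counts, replicate numbers as a block, libraries left out, totals without members, doublets kept, members kept in the clustering, equal cell numbers, single-cell means, no mitochondrial genes, 1000 genes per cell and, added after seeing the data, finer clustering at 0.25 and cells of 3000 to 9000 UMIs. A few members that this rule names are not reported here. Sequences are from RefSeq (GRCm38.p6).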

Additional observations from a re-analysis of the deposited data

Results flagged for a closer look

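T and NK cells, which no test above used, had a higher member share in each AML library (33.4%, 40.8% and 37.7%) than in each Control library (23.3%, 32.0% and 30.5%), a difference of 8.73 percentage points between the means. They came up by a rule for classes outside the tests with enough cells in every library. It picked those in which every AML library was above every Control library. The lack of overlap is thus how the class was chosen and adds no support. The difference was not tested. The class held 18, 66 and 68 cells in Controls and 69, 43 and 49 in AML libraries, and Control 1, with 18 cells, was the lowest.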

How the results depend on the processing

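Of 81 alternative counts of called members between AML and Control, 77 were 0 like the count given, as were 54 of 54 with a library left out. These 54 say nothing about stability, since over all genes the calls ran from 0 to 1260 and were 0 in 4 of the 54 fits (general capillary without Control 1, venous without Control 1 or Control 3, alveolar type 2 without AML 3). The exceptions in alveolar duct myofibroblasts were 3 with DESeq2 (Rpl12, Rps3a1 and Rps25) and 32 with the replicate number as a block, in arterial endothelial cells 1 with that block (Rps3), and in ciliated cells 7 with doublets kept (among them Rps3, Rps18, Rps23, Rpl13 and Rpl14). The libraries share only a number: deviations of same-numbered libraries correlated at -0.20 to 0.10 over genes, and in 0 of 9 classes did every library correlate best with its own number. With doublets kept, the ciliated share difference was 2.31 percentage points in place of 0.7502. The other 62 of 63 share differences moved by less than 1 SD. With a library left out they ranged from -1.71 to 5.84 percentage points over the classes. For alveolar type 2 minus capillary cells the count was 0 to 1 with a library left out, 1 (Rpl27a) without AML 1. The leukaemia count was 78 to 79, and its median 1.59 to 1.77. Of the leukaemia members, Rps6 lost its call without AML 2 (log2 0.42). The cause of these changes was not tested. Classes with 20 to 60 cells in a library limit what could be called, and intervals for counting error would not cover the spread between libraries.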

Other observations

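Classes too small for a test also differed in their member share, given here as values only. Monocytes or macrophages had 12.2%, 16.9% and 18.9% in Control 1, 2 and 3 and 19.2%, 21.6% and 14.97% in AML 1, 2 and 3, from 10 to 49 cells a library. Neutrophils, short-lived cells that make little new protein, had 5.77%, 6.57% and 3.01% and then 3.38%, 4.12% and 4.82%, from 1 to 25 cells a library. Platelet-like barcodes had 5.97%, 10.1% and 11.3% and then 6.95%, 9.26% and 9.60%. Blood cells thus spanned nearly the whole range of shares, with neutrophils near ciliated cells and lymphocytes at the top. Control 3 alone held a cluster of 464 barcodes led by haemoglobin genes together with the airway genes Scgb1a1 and Scgb3a2, and its member share was 17.4%. These barcodes had a median of 12.4% mitochondrial UMIs, against 3.56% over all cells of Control 3, so they may be damaged or mixed. They were counted among the blood cells. Alveolar type 1 cells, the thin cells of the air surface, had 2.36%, 6.18% and 6.32% in Controls and 6.62%, 7.42% and 6.55% in AML libraries, with 1 cell in Control 1. Pericytes had 6.42%, 7.82% and 8.47% and then 8.52%, 7.81% and 8.64%, from 8 to 40 cells a library.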
